A study of Homo sapiens with 12 samples.

Results

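The 9 genes described here are the IGF binding proteins IGFBP1 to IGFBP7 and the IGF receptors IGF1R and IGF2R, taken by symbol from a table of 61541 genes. All 9 were counted above the filter on low values, among 16768 genes that were tested. RNA sequencing was done on 12 libraries from A549, a human line grown out of a lung adenocarcinoma, collected 14 days after transduction. There were 4 groups of 3 libraries. In the lone control, cells carried the non-targeting guide gNTC1 (genotype NTC KO), and in the co-cultured control such cells were grown in co-culture. In the lone knockout, cells had the thymidylate synthase gene knocked out (TS-KO, genotype TYMS KO), and in the co-cultured knockout such cells were grown in co-culture. Per the labels, all groups shared the line, the medium and the transduction, and none had another treatment, but counts given below go against the label of the line in the control. The co-culture partner, any separation of the partners ahead of RNA extraction, and whether the knockout was 1 clone are not given in the labels, so the share of partner RNA was not tested.

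IGF binding proteins are secreted proteins that hold IGF1 and IGF2 outside the cell and so set how much ligand reaches the receptor, and several also act on cells without a ligand. IGF1R is the receptor tyrosine kinase that signals to PI3K and AKT, whereas IGF2R carries IGF2 and mannose 6-phosphate-tagged enzymes to lysosomes and does not signal as a kinase. Several of the binding proteins, IGFBP3 and IGFBP7 among them, are known as secreted products of arrested or senescent cells.

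Total counts per library ran from 14921371 to 35723762. TYMS, the targeted gene, was lower in every knockout library, at 20.3, 21 and 21.4 CPM (counts scaled to a common library size with TMM factors) in the lone knockout and 11.4, 11 and 10.7 CPM in the co-cultured knockout, against 90.3 to 101 CPM in the 6 control libraries. A549 is known to have lost CDKN2A, a cell cycle inhibitor gene, and its neighbour MTAP by deletion. The 6 knockout libraries held 0 to 4 counts of CDKN2A and 7 to 21 of MTAP, but the 6 libraries labelled control held 921 to 2127 and 801 to 1571 counts, which goes against that deletion. EPCAM, an epithelial adhesion gene, was at 94.4 to 119 CPM in the libraries labelled control and at 0.149 to 0.913 CPM in the knockout. These 3 genes were chosen after earlier results were known. A difference in the origin of the cells and the effect of the knockout cannot be told apart in any comparison of knockout with control. The contrast between both knockout groups compares no control library, but its filter, scaling and spread came from the fit over all 12 libraries. The 7 epithelial markers summed to 10867 to 18375 CPM in single libraries, with no group apart from the others in that sum. The sum hides single markers that differed in opposite directions. In the lone knockout 3 were higher and 3 lower than in the lone control (edgeR adjusted p under 0.05). Of all genes tested, 28% were higher and 28.6% lower there. Of the 6 fibroblast markers 4 were tested, and the 6 summed to 14.2 to 34.3 CPM. The 4 endothelial markers (2 tested) summed to 1.83 to 2.73 CPM in the control and 0.0847 to 0.634 CPM in the knockout. The 4 leukocyte markers (1 tested, CD14) summed to 0.797 to 6.07 CPM, with CD3E, a T cell gene, at 0 in all libraries. Replicates 2 and 3 of the co-cultured knockout differed most within a group, with a chi-square per gene of 130 against 8.77 to 51.2 for the other pairs, and results that rest on replicate 3 are given also without it. The labels do not say that replicates were separate cultures, so p-values measure the spread between these libraries, which may be technical.

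Between lone knockout and lone control, 8 of the 9 genes passed the test, 5 of them higher and 3 lower in the knockout. IGFBP3, IGFBP4, IGFBP7, IGF1R and IGF2R were higher, IGFBP2, IGFBP5 and IGFBP6 were lower, and IGFBP1 did not pass. IGFBP5 was tested only because of its control libraries, since its knockout counts are too low for the filter, so its call against control gives these counts no support. Passing means an adjusted p under 0.05 in edgeR's quasi-likelihood test with Benjamini-Hochberg adjustment over all genes tested. In that comparison 56.6% of all genes tested passed, 28% higher and 28.6% lower, so a pass was common. The median log2 difference was 0.49 over the 9 genes and 0.09 over all genes tested. In co-cultured against lone knockout cells 1 of the 9 passed, against 11.4% of all genes tested: IGFBP1, which was 5.26-fold higher.

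**Figure D1:**
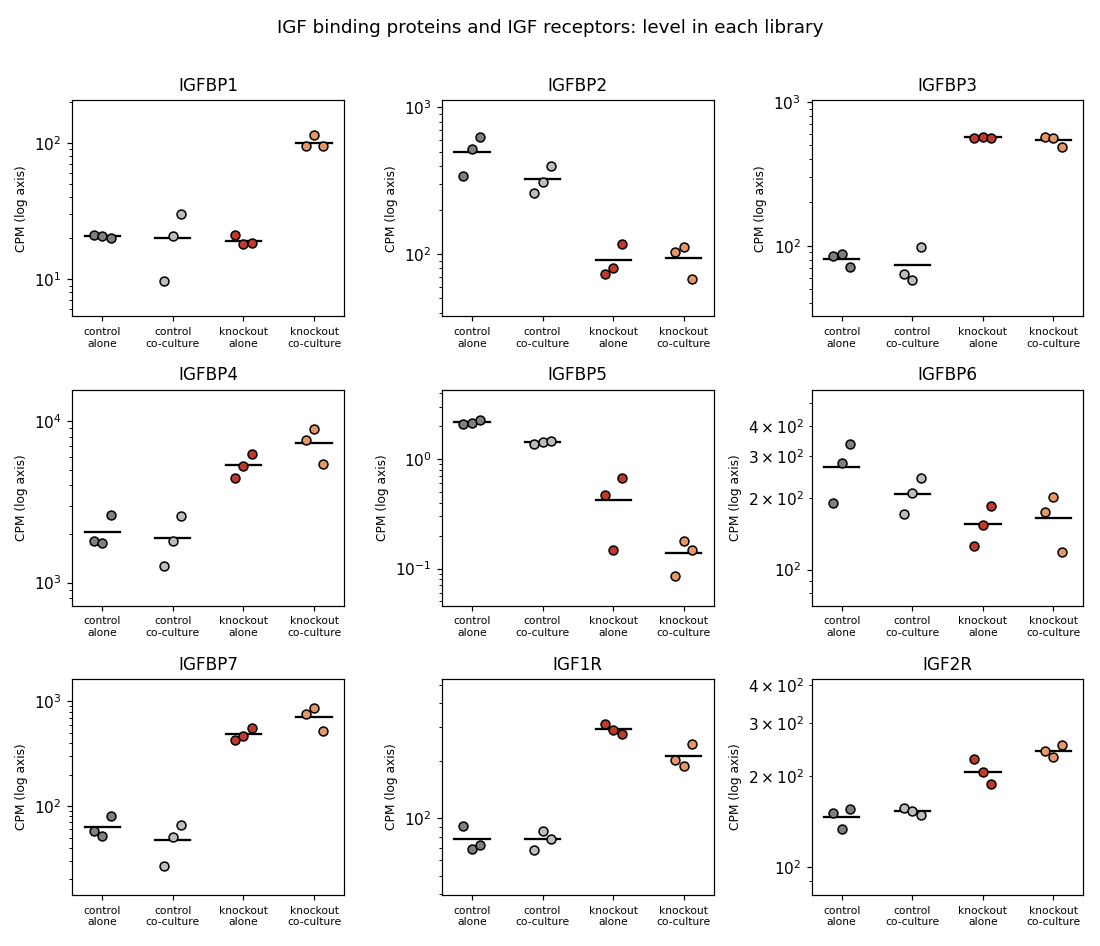
Level of each of the 9 genes in each of the 12 libraries, in CPM on a log axis, with 1 point per library in replicate order and a bar at the group mean (n = 3). IGFBP3, IGFBP7 and IGF1R lie higher in all 6 knockout libraries than in any control library, and IGFBP1 lies higher in the co-cultured knockout alone, at 94.6 to 114 CPM.

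IGFBP3 is the main carrier of IGF in blood and has known growth-restraining actions of its own. Its level was 84.7, 87.2 and 70.6 CPM in the control grown alone, 63.9, 57.9 and 98.3 CPM in the co-cultured control, 566, 574 and 563 CPM in the lone knockout and 573, 564 and 489 CPM in the co-cultured knockout. All 6 knockout libraries lay above all 6 control libraries. The lone knockout was 7.03-fold above the lone control, a log2 difference of 2.81 (SE 0.19, edgeR adjusted p = 1.18e-07), and the co-cultured knockout was 7.38-fold above the co-cultured control (2.88, SE 0.20, edgeR adjusted p = 1.09e-07). Between co-cultured and lone knockout the log2 difference had a 95% interval of -0.46 to 0.33 around -0.07, with an edgeR adjusted p of 0.828. IGFBP3 lies on the minus strand of chromosome 7 from 45912245 to 45921874 (GRCh38, GENCODE 29).

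IGFBP7 binds IGF1 and IGF2 weakly and binds insulin and extracellular matrix. It was at 57.1, 51.7 and 80.7 CPM in the control grown alone, 26.8, 50.7 and 65.9 CPM in the co-cultured control, 432, 469 and 558 CPM in the lone knockout and 767, 862 and 522 CPM in the co-cultured knockout. Knockout and control libraries did not overlap, whereas the third replicate of the co-cultured knockout lay within the range of the lone knockout. The log2 difference from control was 2.95 alone (SE 0.31, edgeR adjusted p = 5.21e-06) and 3.90 in co-culture (SE 0.32, edgeR adjusted p = 6.89e-07), or 7.7-fold and 15-fold. The log2 difference between co-cultured and lone knockout was 0.56 (SE 0.29, edgeR adjusted p = 0.208). Without replicate 3 of the co-cultured knockout it was 0.75, with an edgeR adjusted p of 0.0499, and without the filter on low counts 0.70 (edgeR adjusted p = 0.00696). Its interaction of 0.96 (edgeR adjusted p = 0.241) was likewise 1.15 (0.0427) without that library and 1.07 (0.00751) without the filter. The exons of IGFBP7, on the minus strand of chromosome 4 from 57030773 to 57110385, overlap those of POLR2B and IGFBP7-AS1 on the other strand. The mean of POLR2B was 49.6 CPM (lone control), 56.9 CPM (co-cultured control), 42 CPM (lone knockout) and 23.2 CPM (co-cultured knockout), and IGFBP7-AS1 was at most 0.212 CPM in any library. The strand setting of the counting is not given in the sources used here, so reads of the overlap cannot be assigned to 1 gene.

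IGFBP4, a binding protein that is cleaved by the protease PAPPA, was the most abundant of the 9 genes. Its level was 1807, 1752 and 2604 CPM in the control grown alone, 1269, 1798 and 2570 CPM in the co-cultured control, 4416, 5268 and 6284 CPM in the lone knockout and 7582, 8876 and 5413 CPM in the co-cultured knockout. Knockout libraries lay above all control libraries. The log2 difference from control was 1.37 alone (SE 0.27, edgeR adjusted p = 9.63e-04) and 1.96 in co-culture (SE 0.28, edgeR adjusted p = 7.93e-05). With offsets for the GC content of genes the lone difference grew from 2.59-fold to 4.26-fold (log2 2.09). Co-culture within the knockout gave 0.45 (SE 0.27, edgeR adjusted p = 0.275), with overlapping groups.

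The 250 bases before the annotated start of IGFBP4 are shown because it is the member with the highest level, together with those of IGF1R, the signalling receptor, which rose with it. They come from RefSeq promoter windows on GRCh38.p14, read 5′ to 3′ on the gene's own strand at chr17:40443200-40443449 (plus strand) and chr15:98648289-98648538 (plus strand). Windows of 7 of the 9 genes were matched; those of IGFBP1 and IGFBP7 were missing. Capitals mark matches to TATAAA and GGGCGG, the letters of the TATA box and the GC box, searched on both strands, where CCGCCC is the GC box on the other strand. No match overlapped one of another motif.
IGFBP4: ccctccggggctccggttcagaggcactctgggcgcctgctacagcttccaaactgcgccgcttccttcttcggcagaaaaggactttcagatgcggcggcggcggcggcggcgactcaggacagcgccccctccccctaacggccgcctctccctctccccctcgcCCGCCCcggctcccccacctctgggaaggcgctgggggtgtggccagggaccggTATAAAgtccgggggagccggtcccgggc
IGF1R: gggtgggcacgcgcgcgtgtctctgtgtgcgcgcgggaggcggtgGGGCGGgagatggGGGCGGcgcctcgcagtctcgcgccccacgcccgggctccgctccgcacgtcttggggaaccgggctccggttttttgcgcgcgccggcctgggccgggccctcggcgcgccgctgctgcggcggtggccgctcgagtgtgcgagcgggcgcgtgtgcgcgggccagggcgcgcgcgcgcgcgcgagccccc
IGFBP4 was the only one of the 7 windows with TATAAA, which began 29 bases before the start. Of 35116 RefSeq windows of the same length, 10.7% held that motif. The GC box letters were in 6 of the 7 windows (IGFBP2, IGFBP3, IGFBP4, IGFBP6, IGF1R and IGF2R) and in 42.6% of all windows. The windows of IGFBP3 and IGFBP6 overlap their own gene as annotated in GENCODE 29, so they are not wholly upstream of it. None of the 7 held CCAAT, found in 32% of all windows, or the core of the insulin response element (CAAAACA), found in 4.3%. The letters of an AP-1 site (TGANTCA) were also in none, and in 6.57% of all windows. The IGF1R window was 81.2% G or C with 48 CpG dinucleotides, the IGFBP4 window 71.6% with 24, and the median over all windows was 58% with 11. These letter matches describe the windows and say nothing of which factors act there.

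IGFBP2 and IGFBP5 lie 7668 bases apart on chromosome 2, on opposite strands with their 3′ ends towards each other, and both were lower in the knockout. IGFBP2, which binds IGF2 with preference, was at 341, 520 and 626 CPM in the control grown alone, 261, 312 and 401 CPM in the co-cultured control, 73.5, 81.1 and 118 CPM in the lone knockout and 103, 112 and 67.5 CPM in the co-cultured knockout. No knockout library reached a control library. The lone knockout was 5.47-fold below the lone control (log2 -2.45, SE 0.28, edgeR adjusted p = 1.01e-05). The co-cultured knockout was 3.45-fold below its control (log2 -1.79, SE 0.27, edgeR adjusted p = 1.33e-04). Within the knockout, co-culture gave a log2 difference of 0.06 with a 95% interval of -0.52 to 0.63.

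IGFBP5, which binds extracellular matrix and is made by many stromal cells, was the lowest of the 9. It was at 2.11, 2.16 and 2.30 CPM in the control grown alone, 1.37, 1.45 and 1.47 CPM in the co-cultured control, 0.466, 0.149 and 0.669 CPM in the lone knockout and 0.0862, 0.179 and 0.149 CPM in the co-cultured knockout. The co-cultured control lay below the lone control in every library, and the knockout groups overlapped. The counts behind these levels were 11, 3 and 11 (lone knockout) and 2, 6 and 4 (co-cultured knockout), against 23 to 42 in the control libraries, so the sizes are imprecise. The gene was kept by the filter through the control libraries, where it is high, and in the fit on the 6 knockout libraries alone it was filtered out, so the tests below had to favour a difference from control and the contrast within the knockout rests on few counts. The log2 difference from control was -2.37 alone (SE 0.37, edgeR adjusted p = 1.49e-04) and -3.28 in co-culture (SE 0.42, edgeR adjusted p = 2.87e-05). Between co-cultured and lone knockout it was -1.52 (SE 0.48, edgeR adjusted p = 0.06), and at that depth it passed in some settings: with GC-content offsets (-1.63, adjusted p = 0.0243; -1.61, 0.0422 with the replicate block too) and without replicate 2 of the lone knockout (-1.93, adjusted p = 0.0213). Exons of IGFBP5 overlap the antisense gene AC007563.2, which was not matched by symbol in the table.

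The windows of this neighbouring pair are printed because both genes were lower: chr2:216632578-216632827 on the plus strand for IGFBP2 and chr2:216695550-216695799 on the minus strand for IGFBP5, from RefSeq on GRCh38.p14. Capitals mark GGGCGG, as above.
IGFBP2: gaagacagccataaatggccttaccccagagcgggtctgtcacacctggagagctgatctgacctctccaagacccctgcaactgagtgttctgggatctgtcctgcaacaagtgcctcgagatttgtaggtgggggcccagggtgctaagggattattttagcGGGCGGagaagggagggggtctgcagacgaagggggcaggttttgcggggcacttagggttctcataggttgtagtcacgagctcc
IGFBP5: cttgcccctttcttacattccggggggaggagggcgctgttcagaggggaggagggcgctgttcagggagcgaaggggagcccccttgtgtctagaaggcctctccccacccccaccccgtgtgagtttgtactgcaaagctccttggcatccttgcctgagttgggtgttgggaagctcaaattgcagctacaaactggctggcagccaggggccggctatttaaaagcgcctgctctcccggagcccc
IGFBP2 had 1 such match, which began 86 bases before the start, and IGFBP5 had no match to the letters of the 5 motifs. Variants of these letters were not searched. The windows were 56.8% and 61.2% G or C, with 7 and 8 CpG dinucleotides, against a lower quartile of 3 and a median of 11 over all windows. No other gene tested within 500 kb of the pair was called lower in the lone knockout than in the lone control. MARCHF4, a ubiquitin ligase gene in that range, was higher in the lone knockout (log2 5.98, edgeR adjusted p = 5.86e-10), and for XRCC5, a DNA repair gene, the log2 difference was -0.03 (edgeR adjusted p = 0.918).

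IGFBP6, a binding protein with high preference for IGF2, gave the least stable difference. Its level was 191, 280 and 338 CPM in the control grown alone, 171, 209 and 243 CPM in the co-cultured control, 126, 154 and 185 CPM in the lone knockout and 175, 202 and 119 CPM in the co-cultured knockout. The lone groups did not overlap, by a narrow margin, and the co-cultured groups did. Alone the log2 difference from control was -0.80 (SE 0.24, edgeR adjusted p = 0.0133). That call was lost with GC-content offsets (0.02, edgeR adjusted p = 0.839), without replicate 3 of the lone control (-0.63, adjusted p = 0.0549) and without replicate 1 of the lone knockout (-0.67, adjusted p = 0.0593). IGFBP6 transcripts had 64.1% G or C, the most of the 9 genes, and over 16505 genes the lone knockout difference and GC content had a Spearman correlation of -0.39, a description across genes that share libraries. The same correlation was 0.44 for co-cultured against lone knockout and 0.53 for the interaction of co-culture with knockout. It was -0.37 for co-culture in the control and -0.11 between the co-cultured groups. In co-culture the log2 difference from control was -0.33 (SE 0.24, edgeR adjusted p = 0.282).

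IGFBP1 is an inducible binding protein that insulin represses in liver and that stress raises. It was at 21.2, 20.8 and 20.1 CPM in the control grown alone, 9.68, 20.7 and 30.2 CPM in the co-cultured control, 21, 18.2 and 18.6 CPM in the lone knockout and 95.1, 114 and 94.6 CPM in the co-cultured knockout. All 3 co-cultured knockout libraries lay above the other 9. Between lone knockout and lone control the log2 difference was -0.11 (SE 0.28, 95% interval -0.72 to 0.51, edgeR adjusted p = 0.768).

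Co-cultured knockout cells had 5.26-fold more IGFBP1 than lone knockout cells (log2 2.39, SE 0.29, edgeR adjusted p = 3.49e-04). IGFBP1 was the 1 of 9 genes that passed in this comparison, where 11.4% of all genes tested passed, 5.97% higher and 5.4% lower. The median of the 9 was 0.09, and 0.01 over all genes tested. Fitted on the 6 knockout libraries alone, with no control library, the log2 difference was 2.38 (SE 0.14, edgeR adjusted p = 9.07e-04). Without replicate 3 of the co-cultured knockout it was 2.44 (edgeR adjusted p = 9.12e-05). The difference of IGFBP1 between the knockout and its control in co-culture was 4.98-fold (log2 2.32, SE 0.29, edgeR adjusted p = 2.71e-05).

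For co-culture in the control, none of the 9 genes passed in edgeR, where 0% of all genes passed, 0% higher and 0% lower. At an unadjusted p under 0.05 edgeR counted 540 of all genes, 3.22%, and 1 of the 9, IGFBP2. Its log2 difference was -0.61 (SE 0.26, 95% interval -1.18 to -0.04), with overlapping groups. IGFBP5 was also at -0.61 (SE 0.32, 95% interval -1.30 to 0.08), without overlap. DESeq2 and limma-voom also called 0 genes, with 552 and 585 at an unadjusted p under 0.05. For IGFBP1 the log2 difference was -0.03 (SE 0.28, 95% interval -0.64 to 0.58), with the co-cultured control libraries spread from 9.68 to 30.2 CPM. The interaction, the co-culture difference in the knockout minus that in the control, was 2.42 for IGFBP1 (SE 0.40, edgeR adjusted p = 0.00842). IGFBP1 was the 1 of 9 that passed, where 1.8% of all genes tested passed, 1.51% higher and 0.286% lower. The interaction median was 0.47 over the 9 genes and 0.01 over all genes. Other values moved with it. TYMS had a mean of 20.9 CPM in the lone and 11 CPM in the co-cultured knockout (log2 -0.92, edgeR adjusted p = 3.07e-04). The leukocyte markers summed to 0.797 to 0.931 CPM in the lone and 2.76 to 4.26 CPM in the co-cultured knockout, with CD14, a monocyte gene, called higher and CD3E at 0. The endothelial sums were 0.0847 to 0.398 and 0.302 to 0.634 CPM, and the fibroblast sums 29.1 to 34.3 and 21.7 to 29.2 CPM. The part of these in the IGFBP1 difference was not tested. In bulk RNA, more cells that make IGFBP1 and more IGFBP1 RNA per cell cannot be told apart.

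IGFBP1 and IGFBP3 lie 18576 bases apart on chromosome 7, on opposite strands with their 3′ ends towards each other. IGFBP1 spans 45888357 to 45893668 on the plus strand. The pair did not move together: IGFBP3 was high in both knockout groups and IGFBP1 in the co-cultured knockout. The ratio of IGFBP3 to IGFBP1 counts was 3.9 ± 0.351 in the lone control, 4.22 ± 2.08 in the co-cultured control, 29.7 ± 2.36 in the lone knockout and 5.39 ± 0.565 in the co-cultured knockout (SD, n = 3). These ratios were formed after the levels were seen and are a description, with no test.

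**Figure D2:**
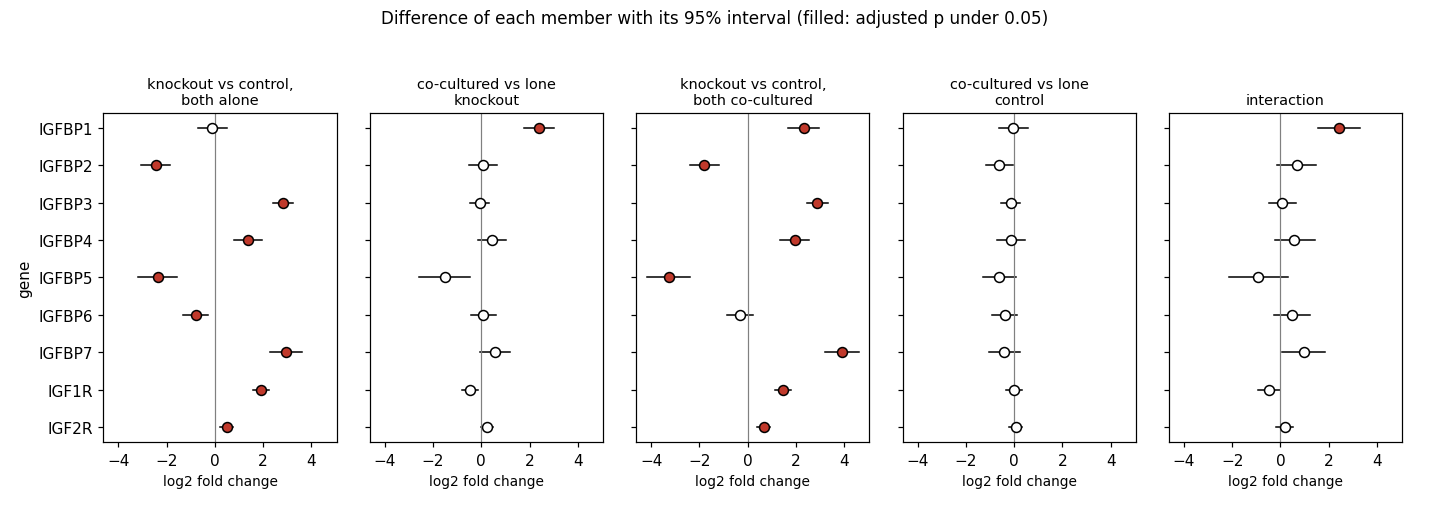
Log2 fold change of each of the 9 genes in the 5 comparisons, with 95% intervals from the edgeR fit over 12 libraries; filled points have an adjusted p under 0.05. IGFBP1 is filled in the 3 panels that contain the co-cultured knockout and open in the other 2, at -0.11 and -0.03.

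IGF1R, the signalling receptor, was at 91.1, 69 and 72.5 CPM in the control grown alone, 68.2, 86.1 and 77.8 CPM in the co-cultured control, 311, 289 and 276 CPM in the lone knockout and 203, 187 and 244 CPM in the co-cultured knockout. All knockout libraries lay above all control libraries, and the co-cultured knockout lay below the lone knockout without overlap. The lone knockout was 3.77-fold above the lone control (log2 1.91, SE 0.16, edgeR adjusted p = 5.25e-07), and the co-cultured knockout 2.73-fold above its control (log2 1.45, SE 0.16, edgeR adjusted p = 6.37e-06). Between co-cultured and lone knockout the log2 difference was -0.47 (SE 0.15, 95% interval -0.79 to -0.14), which did not pass (edgeR adjusted p = 0.0647). It passed with DESeq2 (-0.41, adjusted p = 0.0272), with limma-voom (-0.47, adjusted p = 0.0454), with GC-content offsets in edgeR (-0.56, adjusted p = 0.0151; 0.0271 with the replicate block too) and in edgeR without replicate 3 of the co-cultured knockout (-0.58, adjusted p = 0.0142) or replicate 1 of the lone control (-0.46, adjusted p = 0.046). The interaction of -0.46 did not pass (SE 0.22, edgeR adjusted p = 0.27).

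IGF2R, the sorting receptor, differed less. Its level was 151, 134 and 156 CPM in the control grown alone, 157, 154 and 149 CPM in the co-cultured control, 227, 206 and 188 CPM in the lone knockout and 242, 231 and 253 CPM in the co-cultured knockout. Knockout and control libraries did not overlap, nor did the 2 knockout groups. The log2 difference from control was 0.49 alone (SE 0.12, edgeR adjusted p = 0.00383) and 0.66 in co-culture (SE 0.12, edgeR adjusted p = 5.31e-04). Within the knockout, co-culture gave 0.23 (SE 0.12, edgeR adjusted p = 0.218). Per kilobase of exon, IGF1R stood at 0.675 ± 0.0892 times IGF2R in the lone control, 0.648 ± 0.0824 in the co-cultured control, 1.81 ± 0.0605 in the lone knockout and 1.11 ± 0.105 in the co-cultured knockout (SD, n = 3), again a ratio chosen after the levels were seen.

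Between the co-cultured groups, 8 of the 9 genes passed, 6 higher and 2 lower in the knockout, where 49.4% of all genes tested passed, 24.1% higher and 25.3% lower. The 6 were IGFBP1, IGFBP3, IGFBP4, IGFBP7, IGF1R and IGF2R, the 2 were IGFBP2 and IGFBP5, and IGFBP6 did not pass. The median was 1.45 over the 9 and -0.02 over all genes. Each of the 8 also passed without replicate 3 of the co-cultured knockout, with log2 differences from -3.30 (IGFBP5) to 4.09 (IGFBP7). IGFBP5 was tested only because of its control libraries, so its pass gives no support here. Besides it, the lowest log2 difference was -1.59 (IGFBP2). The lone and the co-cultured comparisons share no library, but both come from 1 fit over all 12 libraries with a shared spread. In both, the origin of the cells and the knockout cannot be told apart.

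Levels are comparable between genes only per exon length, here in CPM per kilobase of merged exons. That length joins the exons of all annotated transcripts, such as 4767 bases for IGFBP2 and 1346 for IGFBP6. Which transcripts the cells made was not tested, so the order and the shares below depend on this choice of length. In the lone control the order was IGFBP4 at 934 ± 217, IGFBP6 at 200 ± 55.4, IGFBP2 at 104 ± 30.1, IGFBP7 at 32.7 ± 8, IGFBP3 at 17.7 ± 1.97, IGFBP1 at 12.5 ± 0.333, IGF2R at 8.24 ± 0.622, IGF1R at 5.56 ± 0.852 and IGFBP5 at 0.339 ± 0.0152 (SD, n = 3). No neighbours in that order overlapped between libraries. In the co-cultured control the order of the means was the same, from IGFBP4 at 854 ± 297 to IGFBP5 at 0.222 ± 0.00861, but IGFBP7, IGFBP3 and IGFBP1 each overlapped the next.

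In the lone knockout IGFBP4 stayed first at 2419 ± 425 CPM per kilobase and IGFBP7 came second at 252 ± 33.6. IGFBP3 at 124 ± 1.23 and IGFBP6 at 115 ± 22 overlapped, as did IGF1R at 20.9 ± 1.29 with IGFBP2 at 19 ± 4.94, and IGFBP1 with IGF2R, both at 11.6. IGFBP5 was last at 0.0665 ± 0.0407. In the co-cultured knockout IGFBP4 was at 3314 ± 795, IGFBP7 at 371 ± 90.8, IGFBP6 at 123 ± 31.4 and IGFBP3 at 119 ± 10.1, the last 2 overlapping. IGFBP1 came next at 61.2 ± 6.55 CPM per kilobase, above IGFBP2 at 19.8 ± 4.93, IGF1R at 15.2 ± 2.11 and IGF2R at 13.6 ± 0.62, which overlapped in sequence, and IGFBP5 at 0.0214 ± 0.00735.

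Summed over the 7 binding proteins, the level per exon length was 1302 CPM per kilobase in the lone control, 1130 in the co-cultured control, 2942 in the lone knockout and 4008 in the co-cultured knockout. IGFBP4 made up 71.7% ± 3.57 of that sum in the lone control and 82.1% ± 0.994 in the lone knockout. The share of IGFBP7 was 2.51% ± 0.211 and 8.6% ± 0.379, and that of IGFBP3 was 1.42% ± 0.415 and 4.3% ± 0.711. Against these, IGFBP6 went from 15.4% ± 2.43 to 3.9% ± 0.112 and IGFBP2 from 7.96% ± 1.39 to 0.641% ± 0.0674 (SD, n = 3, no test). The share of IGFBP1 was 0.405% ± 0.0957 in the lone and 1.57% ± 0.296 in the co-cultured knockout.

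**Figure D3:**
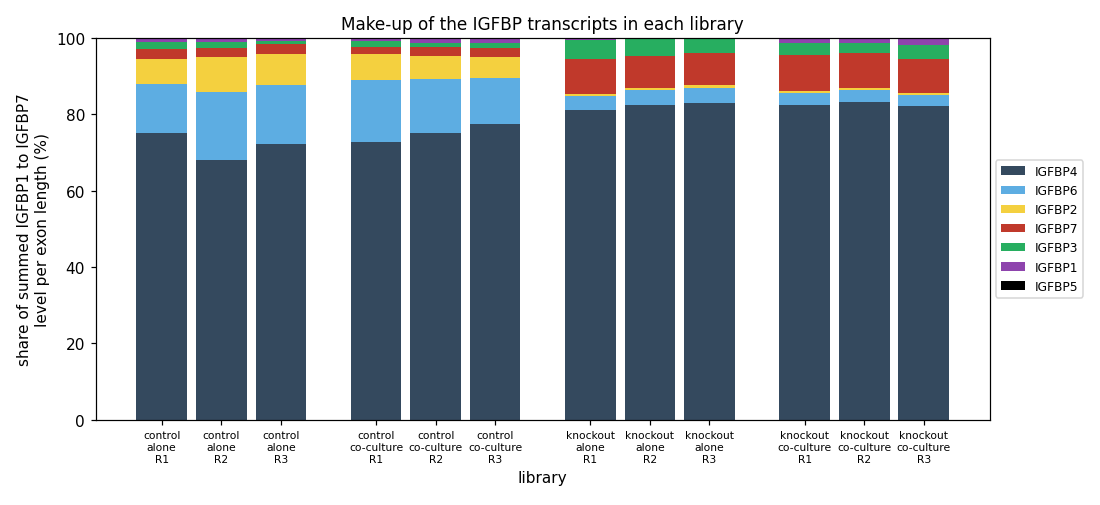
Share of each binding protein in the summed IGFBP1 to IGFBP7 level per exon length, in percent, 1 stacked bar per library. IGFBP4 takes 67.9% to 83.2% in every library, the bands of IGFBP6 and IGFBP2 are narrower in every knockout bar than in any control bar, and those of IGFBP7 and IGFBP3 are wider.

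Of the ligands, IGF2 was at 6.2, 5.11 and 5.3 CPM in the control grown alone, 3.8, 3.87 and 4.2 CPM in the co-cultured control, 1.23, 1.94 and 2.07 CPM in the lone knockout and 0.69, 0.745 and 1.01 CPM in the co-cultured knockout. The 4 groups did not overlap. The log2 difference from the lone control was -1.67 (SE 0.25, edgeR adjusted p = 9.92e-05), and -1.09 with GC-content offsets and the replicate block. Within the knockout it was -1.08 (SE 0.27, edgeR adjusted p = 0.0238), a call lost under 6 of 22 other settings, with adjusted p up to 0.117. Exons of IGF2 overlap INS-IGF2, AC132217.1 and another protein-coding entry also named IGF2 on the same strand, and IGF2-AS on the other. How reads of these overlaps were counted is not given, so the value may cover only part of IGF2 and is uncertain. IGF1 had at most 2 counts in any library and INS had 0, so neither was tested. INSR, the insulin receptor, had a log2 difference of -0.42 alone (SE 0.22, edgeR adjusted p = 0.128), which passed with GC-content offsets (-0.56, adjusted p = 0.0169; -0.55, 0.0252 with the replicate block too). Between the co-cultured groups INSR was lower (log2 -0.67, SE 0.22, edgeR adjusted p = 0.0242), a call lost under 6 of 22 other settings.

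Among proteases that cleave IGF binding proteins and their inhibitors, 10 of 13 tested were higher and 2 lower in the lone knockout, against 28% and 28.6% of all genes tested. PAPPA, the IGFBP4 protease, had 19.2, 11.5 and 10.5 CPM in the lone control and 230, 189 and 158 CPM in the lone knockout, with no overlap (log2 3.81, SE 0.32, edgeR adjusted p = 6.61e-07). In co-culture its difference was 3.46 (SE 0.31, edgeR adjusted p = 1.45e-06). STC1 and STC2, stanniocalcins that inhibit PAPPA, were also higher alone, by 2.02 and 1.98, as were the proteases MMP2 (2.34) and ADAM12 (2.11), all log2 values. The 2 that were lower alone were MMP7 (-1.11) and PLAT (-1.05). The median of the list was 1.28 on the log2 scale, beside 0.09 over all genes.

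In co-cultured against lone knockout, 5 of these 13 were higher and 0 lower, against 5.97% and 5.4% of all genes tested. The 5 were MMP7, PLAU, C1S, PLAT and STC2. PLAU, the urokinase that also cleaves binding proteins, was at 179, 182 and 179 CPM in the lone and 479, 520 and 451 CPM in the co-cultured knockout, with no overlap (log2 1.42, SE 0.12, edgeR adjusted p = 3.13e-05). MMP7, matrilysin, was at 12, 12.8 and 12 CPM in the lone and 38.3, 35.3 and 37.4 CPM in the co-cultured knockout (log2 1.59, SE 0.17, edgeR adjusted p = 1.07e-04). The log2 differences of the others were 1.38 for C1S, a complement protease, and 0.87 for STC2. PLAT, the tissue plasminogen activator, went from a mean of 5.73 to 14.7 CPM. C1S, PLAT and STC2 are named outside the naming rule, after their values were seen.

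The 4 tested relatives that share the IGFBP domain all passed alone, 3 higher and 1 lower, where 56.6% of all genes tested passed. CRIM1, a membrane protein that binds BMPs, went from a mean of 33.9 to 293 CPM (log2 3.11, SE 0.30, edgeR adjusted p = 2.31e-06), and IGFBPL1 from 4.78 to 14.7 CPM (log2 1.61, SE 0.18, edgeR adjusted p = 9.24e-06). HTRA3, a serine protease, was the other higher gene at 1.40 (log2), named after its value was seen. KAZALD1 went from 18.7 to 3.09 CPM (log2 -2.59, SE 0.22, edgeR adjusted p = 7.56e-07). With GC-content offsets the log2 values were -1.93 for KAZALD1, 2.33 for IGFBPL1 and 2.22 for HTRA3. In co-cultured against lone knockout 1 of the 4, CRIM1, was lower (log2 -0.98, SE 0.28, edgeR adjusted p = 0.0397), a call lost under 11 of 22 other settings.

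Of 23 tested adaptors and members of the PI3K, AKT and FOXO pathway, 10 were higher and 5 lower in the lone knockout, or 65.2% called, near the 56.6% of all genes tested. The 5 lower were FOXO4, AKT1, GRB2, TSC2 and MTOR, all but FOXO4 named after their values were seen. AKT1 went from a mean of 503 to 241 CPM (log2 -1.06, and -0.36 with GC-content offsets, edgeR adjusted p = 0.00168). GRB2 went from 379 to 228 CPM. TSC2 (-0.48) had a log2 difference of 0.14 with GC-content offsets, and the call of MTOR (-0.36) was lost under 13 of 22 other settings. The receptor substrates IRS1 and IRS2 were higher by 0.86 and 1.11, and PDPK1, the kinase that activates AKT, by 1.2, all log2 values. FOXO4, a transcription factor that AKT restrains, went from 20.2 to 3.78 CPM (log2 -2.42, SE 0.20, edgeR adjusted p = 6.01e-07). In co-cultured against lone knockout 1 of 23 was higher, FOXO4 (log2 1.33, SE 0.20, edgeR adjusted p = 0.00134), and 1 lower, IRS1 (log2 -0.56, SE 0.15, edgeR adjusted p = 0.0354), the latter lost under 11 of 22 other settings.

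Genes of mannose 6-phosphate sorting, which shares IGF2R, gave 2 higher and 5 lower of 12 tested alone, or 58.3% called, about the 56.6% of all genes tested. The higher were GNPTAB, which makes the tag (log2 1.73, SE 0.44, edgeR adjusted p = 0.00496), and SNX2, a retromer sorting nexin (log2 1.55, SE 0.42, edgeR adjusted p = 0.00684). GGA1, a sorting adaptor, was the lowest at -1.11, followed by NAGPA at -0.90. With GC-content offsets the GGA1 value was -0.41. In co-cultured against lone knockout M6PR, the other mannose 6-phosphate receptor, and VPS29, a retromer subunit, were higher by 0.41 and 0.58, calls lost under 12 and 8 of 22 other settings, and VPS29 was at 1.25 with GC-content offsets. Of the proteins that bind IGF2 mRNA, IGF2BP1 was higher (log2 2.05, SE 0.14, edgeR adjusted p = 8.34e-08) and IGF2BP2 lower (log2 -1.22, SE 0.19, edgeR adjusted p = 1.42e-04) alone, and IGF2BP2 was lower also in co-cultured against lone knockout (log2 -0.75, SE 0.19, edgeR adjusted p = 0.0266), a call lost under 6 of 22 other settings.

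Over all 57 tested pathway genes outside the 9, 26 were higher and 15 lower alone, 8 higher and 4 lower in co-cultured against lone knockout, and 21 higher and 13 lower between the co-cultured groups. That is 71.9%, 21.1% and 59.6% called, against 56.6%, 11.4% and 49.4% of all genes tested. Of these, 0 passed for co-culture in the control by edgeR, and 6 were higher and 0 lower in the interaction (10.5%, against 1.8% of all genes tested). Without replicate 3 of the co-cultured knockout, the count of 12 in co-cultured against lone knockout became 32, and the 6 of the interaction became 21. Without 1 of the lone knockout libraries the 12 became 7, and without replicate 1 or 2 of the co-cultured knockout 6. The 6 of the interaction became 3 without replicate 2 of the co-cultured control or replicate 2 or 3 of the lone knockout.

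**Figure D4:**
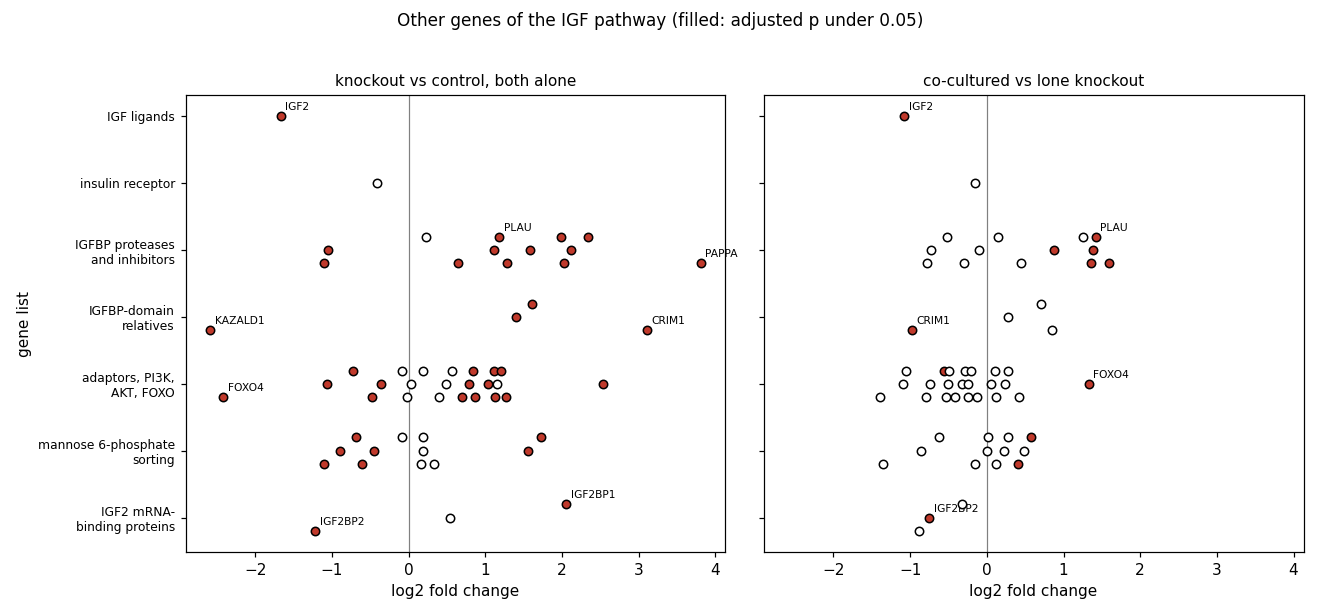
Log2 fold change of the 57 tested pathway genes outside the 9, by list, in lone knockout against lone control (left) and in co-cultured against lone knockout (right); filled points have an adjusted p under 0.05 in edgeR and some genes are named. PAPPA stands farthest right at 3.81 in the left panel, and the filled protease points of the right panel lie between 0.87 and 1.59.

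For the 3 members with the widest range of group means, the most similar genes over the 12 libraries were found by Pearson's r of log2 CPM among 11165 genes. IGFBP7 was closest to ARSI (0.998), PFKFB3 (0.996) and CD70 (0.996), IGFBP5 to NHSL1 (0.977), FAM110C (0.968) and GRIN2B (0.963), and IGFBP3 to FLJ16779 (0.996), SULF2 (0.995) and NTRK3 (0.993). Such values describe the 12 libraries and follow mainly the gap between knockout and control, since 553 genes had an r over 0.95 with IGFBP3 and 500 with IGFBP7, against 27 with IGFBP5.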

How the data were processed

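RNA from 12 A549 libraries was sequenced after library preparation with the NEBNext Ultra RNA kit from 500 ng of total RNA, per the labels' protocols. The deposited values are raw counts per Ensembl gene, made by the authors with STAR 2.7.9a and featureCounts on GRCh38, per the submitters' processing notes, which also name FastQC and DESeq2 1.36.0. The annotation release and strand setting are not given in the sources used here. Of 61541 genes, 42045 had a symbol from the tables used and 58366 were in GENCODE 29, from which coordinates and merged exon lengths were taken.

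Counts were fitted in R 4.3.3 with edgeR 4.0.16 (filterByExpr, TMM, robust quasi-likelihood F-test) as 4 group means over all 12 libraries, with Benjamini-Hochberg adjustment over 16768 genes and a threshold of 0.05. Standard errors came from the fold change and F, with 95% intervals. The fit was tested on simulated data. Alternatives were other scalings, filters, DESeq2 1.42.0, limma-voom (limma 3.58.1), fits on only the groups compared, the replicate block, GC-content offsets and leaving out each library. Total counts of 14921371 to 35723762 per library set the precision, which is low for IGFBP5.

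The members and gene lists were chosen with earlier results of these data known. Named genes were all 9 members, IGF1, IGF2, INSR, IRS1, IRS2, PAPPA, M6PR, and in each list up to 4 called genes with the largest change in lone knockout against lone control and up to 2 in co-cultured against lone knockout, with a mean of at least 5 CPM in a group. A gene that this rule names and a marker are not reported here.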

Additional observations from a re-analysis of the deposited data

Results flagged for a closer look

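The co-culture difference of 7 genes was not the same in knockout and control cells by the interaction test in edgeR (adjusted p under 0.05, 3 libraries per group). These were 1 of the 9 members and 6 of 57 tested pathway genes, where 1.8% of all genes tested passed. The origin of the cells and the knockout cannot be told apart in this test either. The interaction was 2.42 on the log2 scale for IGFBP1 (SE 0.40, edgeR adjusted p = 0.00842), which was higher in all 3 co-cultured knockout libraries than in any other library. Among pathway genes it was 1.54 for MMP7 (2.20 with GC-content offsets), 0.98 for PLAU, 1.38 for FOXO4, 0.73 for STC2, 1.46 for PLAT and 1.42 for C1S. The STC2 call was lost under 17 of the other settings, that of FOXO4 under 8 and that of C1S under 3.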

How the results depend on the processing

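The 8 calls of members in lone knockout against lone control were 7 to 8 when single libraries were left out, and the 8 between the co-cultured groups stayed 8 in number under all 22 other settings run. Both counts include IGFBP5, which was tested only because of its control libraries. With the replicate block these counts were 8 and 8, and the block gave 1 for co-cultured against lone knockout, 0 for the control and 1 for the interaction. Correlations of same-numbered deviations from the group means ran from -0.603 to 0.491. Among the lone control, co-cultured control and lone knockout they were 0.189 to 0.491 for replicates 1 and 3. For replicate 2 they were -0.0735 to -0.0242 there, and with the co-cultured knockout all ran from -0.603 to 0.138. Deviations within groups of 3 libraries cannot decide whether replicate numbers pair the libraries. Over all genes the block left 1080 calls of 1907 for co-cultured against lone knockout, and 179 of 301 for the interaction.

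In co-cultured against lone knockout the count of members was 1, but 2 without a filter on low counts, with DESeq2 and with limma-voom, 3 with GC-content offsets and 3 with these and the replicate block, and 1 to 3 when libraries were left out. In the interaction it was 1, but 2 without the filter and 1 to 2 when libraries were left out. For pathway genes in co-cultured against lone knockout the count of 12 was 21 without the filter, 19 with DESeq2, 6 with only the groups compared, 24 with GC-content offsets, 20 with these and the replicate block, and 6 to 32 when libraries were left out, and the 6 of the interaction were 3 to 21. Over all genes the 1907 became 3340 without the filter, 3238 with DESeq2, 2868 with limma-voom, 664 with only the groups compared, 4879 with GC-content offsets, 4185 with these and the block, and 536 to 5680 when libraries were left out. The share of higher among these calls was 52.5%, but 69.6% with library size only, 71.5% with only the groups compared 39.9% with limma-voom, and 36.6% to 75.7% when libraries were left out, lowest without replicate 3 and highest without replicate 1 of the co-cultured knockout. The 301 of the interaction became 1342, 890, 1423 and 873 without the filter, with DESeq2, with GC-content offsets and with these and the block, and 119 to 3623 when libraries were left out. Of these 84.1% were higher, but 54.7%, 62.6%, 57.8% and 62.2% under those settings and 33.1% (without replicate 3 of the co-cultured knockout) to 92.4% when libraries were left out. Co-culture in the control had 2 genes without the filter. Leaving out replicate 3 of the co-cultured knockout gave the highest count of each of these ranges.

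IGFBP6 in lone knockout against lone control changed sign, from -0.80 to 0.02 with GC-content offsets and 0.02 with these and the replicate block, and TSC2 from -0.48 to 0.14 and 0.14. A further 40 values that passed neither time crossed 0, in 11 of 45 member comparisons, with adjusted p of at least 0.28, so no direction is given to them. With library size only these were 0.05 and 0.01 for IGFBP1 (lone knockout against control, and the control), -0.01 for IGFBP2 in co-cultured against lone knockout, -0.03 for the interaction of IGFBP3 and 0.04 for IGF1R in the control. With GC-content offsets, without and with the replicate block, co-cultured against lone knockout gave -0.15 and -0.14 for IGFBP2 and -0.12 and -0.12 for IGFBP6, the interaction of IGFBP6 gave -0.02 and -0.02, and in the control IGFBP4 gave 0.06 and 0.05 and IGF2R -0.02 and -0.02. IGFBP3 in co-cultured against lone knockout gave 0.00 with RLE factors, 0.06 without the filter, 0.03 with at least 1 CPM in 3 libraries and 0.00 with DESeq2. IGF1R in the control gave 0.02 without the filter and 0.00 with at least 1 CPM in 3 libraries, limma-voom, only the groups compared and the replicate block.

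When libraries were left out singly, co-cultured against lone knockout ran from -0.10 to 0.27 for IGFBP2, -0.11 to 0.00 for IGFBP3 and -0.09 to 0.29 for IGFBP6. In the control the ranges were -0.44 to 0.30 for IGFBP1, -0.41 to 0.01 for IGFBP3, -0.42 to 0.09 for IGFBP4, -0.09 to 0.13 for IGF1R and -0.00 to 0.10 for IGF2R, and the interaction of IGFBP3 ran from -0.07 to 0.33. The causes were not tested. With library size only, the median of all genes in lone knockout against lone control was 0.24, against 0.09. Depth limits IGFBP5, with 2 to 11 counts per knockout library.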
